A study of Mus musculus with 6 samples.

Results

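The genes described here are 9 transcription factors that set or hold helper T cell fates: Tbx21, Eomes, Gata3, Maf, Rora, Ahr, Nfil3, Bcl6 and Prdm1. Members were all probe sets whose gene symbol in the platform annotation was exactly one of these names, 25 of the 45037 probe sets tested, a rule that uses names and no measured values. A probe set is a group of short probes on the array that read 1 transcript region, so a gene with several probe sets has several partly independent readings. Rora had 9 probe sets, Maf 6, Eomes, Ahr and Bcl6 2 each, and Tbx21, Gata3, Nfil3 and Prdm1 1 each. The probe sets 1424034_at and 1424035_at of Rora, 1436325_at and 1436326_at of Rora, and both sets of Ahr and of Bcl6 were designed in pairs from the same source sequence.

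The study measured total RNA of mouse T cells on 6 Affymetrix arrays, 3 of cells carrying an E47-ER retrovirus and 3 of cells carrying a control bHLH-ER retrovirus. All cells started as CD4+CD25- lymph node cells of C57BL/6 mice and were pushed towards a regulatory T cell (Treg) state for 2 days with IL-2 and TGF-β1 on plates coated with antibodies to CD3 and CD28. They were transduced on day 1, sorted as CD4+Thy1.1+, and held for 6 hours with 1 µM tamoxifen, IL-2 and the same antibodies, so both groups had tamoxifen and neither was free of a construct. Each of 3 independent experiments gave 1 control and 1 E47 sample, and a sample pooled 3 mice aged 7 weeks in experiment 1, 3 aged 8 weeks in experiment 2 and 4 aged 9 weeks in experiment 3. Values listed in threes follow the order of experiments 1, 2 and 3. E47 is a splice product of Tcf3 that binds DNA at E-boxes, the ER domain is a fusion that tamoxifen activates, and the labels name the control construct without describing it. The cells are a transduced, sorted culture, and values are averages over it, so fewer cells of a type and less RNA per cell cannot be told apart.

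T-bet, the product of Tbx21, drives the Th1 fate, and Eomes, its T-box relative, is best known from CD8 T cells and natural killer (NK) cells. GATA3 drives Th2 cells, and c-Maf, the product of Maf, helps to switch on Il4, Il21 and Il10. RORα, from Rora, works beside RORγt in Th17 cells, and the aryl hydrocarbon receptor, from Ahr, is a ligand-activated factor of Th17 and Treg cells. Bcl6 is the repressor that makes follicular helper cells, Blimp-1, from Prdm1, opposes it, and Nfil3 is a basic leucine zipper repressor of the circadian output that also acts in several lymphocyte types.

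Because E47 binds E-boxes (CANNTG, preferring CAGCTG and CAGGTG in background knowledge), the 250 bases before the annotated start of Tbx21 and of Eomes, both T-box factors, are shown from RefSeq (GRCm38.p6). Capitals mark CANNTG, which reads the same motif on both strands. The Tbx21 stretch is chr11:97115332-97115581 on the minus strand and the Eomes stretch chr9:118477939-118478188 on the plus strand.
Tbx21: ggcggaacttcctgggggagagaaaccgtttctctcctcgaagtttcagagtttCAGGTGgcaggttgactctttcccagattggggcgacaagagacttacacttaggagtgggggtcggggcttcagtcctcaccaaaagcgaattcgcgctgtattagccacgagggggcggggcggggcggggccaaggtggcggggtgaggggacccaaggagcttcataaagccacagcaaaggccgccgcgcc
Eomes: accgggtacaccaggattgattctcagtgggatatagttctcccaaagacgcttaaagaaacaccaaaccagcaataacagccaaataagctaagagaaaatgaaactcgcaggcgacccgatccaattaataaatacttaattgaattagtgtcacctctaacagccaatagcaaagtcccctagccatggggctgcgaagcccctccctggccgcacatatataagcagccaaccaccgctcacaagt
The Tbx21 stretch holds CAGGTG starting 196 bases before the start, and a CAGCTG starts at base 38 after it. No CANNTG occurs in the Eomes window of 250 bases before to 50 after the start. Of the 9 genes, 7 were in the promoter table, with 8 windows of 300 bases, and Maf and Ahr were not. CANNTG occurred in 5 of the 8 windows, against 72.3% of 32851 windows of that length. CAGCTG occurred in 3 of the 8 (Gata3, Tbx21 and Nfil3), against 16.3% of all, and CAGGTG or its reverse complement CACCTG in 2 (Prdm1 and Tbx21), against 20.2%. These counts describe letters in a window, not binding.

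Of the 25 probe sets 19 lay above the median of all probe sets, a log2 level of 5.12. All 6 CD4 T cell markers were above that median as well, with control means from 8.07 for Cd4 to 12.66 for Cd3d. Markers of B cells and plasma cells (6 measured) had control means of 4.60 to 5.48, near the median. Deviations of the control and E47 arrays from their group means correlated across probe sets at 0.52 in experiment 2, beside 0.09 in experiment 1 and 0.31 in experiment 3. Arrays of experiment 2 correlated with those of the other experiments at -0.14 to -0.43. These negative values are partly arithmetic, because deviations from a group mean sum to 0. The E47 array of experiment 1 correlated at 0.22 with the control array of experiment 3, above the 0.09 with its own control. The control array of experiment 1 and the E47 array of experiment 3 gave 0.08.

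E47 arrays were compared with control arrays within experiments to ask which lineage factors differed between the constructs. Eomes was the 1 factor that rose, in 1 of its 2 probe sets, by 1.97-fold. None of the other 24 probe sets passed the test. In the test over all probe sets (limma with the experiment as a block, Benjamini-Hochberg adjustment over all probe sets, threshold 0.05), 0.238% of all probe sets were called higher and 0.0333% lower, against 1 and 0 of the 25. At an unadjusted p under 0.05, 10 of the 25 were lower and 2 higher, against 4.74% and 4.33% of all probe sets, and 5 of these 10 were Rora sets. Without the block limma called 0 of the 25, with 5 at an unadjusted p under 0.05, where 0.115% of all probe sets were called and 5.94% had such a p.

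The log2 fold change was below 0 in 22 of 25 probe sets, with a median of -0.25, beside -0.02 over all probe sets. In 10 sets the E47 array was lower in all 3 experiments, against 17.5% of all probe sets, and in the 2 Eomes sets it was higher in all 3, against 13.5%. The 3 E47 arrays lay below all 3 control arrays in 3 of 25 sets (Tbx21, Gata3 and the dimmer Ahr set), where 6.65% of all probe sets did so, and above them in 0 of 25, against 4.57%. These probe sets share genes and arrays and are not independent of each other.

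**Figure D1:**
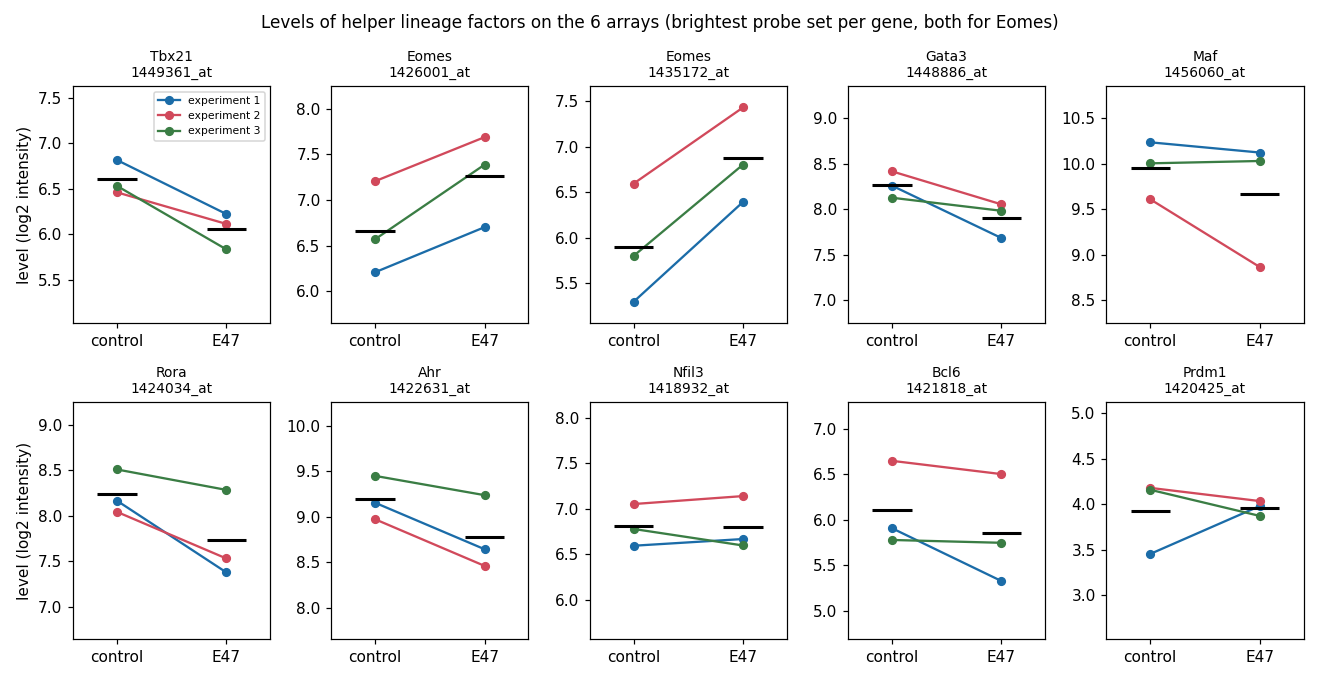
Level (log2 intensity, vertical axis, each panel spanning the same height) on the control and E47 arrays for the brightest probe set of each gene and for both Eomes sets; each line joins the arrays of 1 experiment and black bars are group means. Both Eomes sets are higher in E47 in all 3 experiments, the sets of Tbx21, Gata3, Rora, Ahr and Bcl6 shown are lower in all 3, and Maf differs most in experiment 2 (-0.74).

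Eomes showed the largest difference among the factors. Its probe set 1435172_at read 5.30, 6.59 and 5.80 (log2 level) on the control arrays and 6.39, 7.43 and 6.80 on the E47 arrays. Experiment 2 was the highest in either group and experiment 1 the lowest, so the groups overlapped although each E47 array lay above its own control. The differences within experiments were 1.10, 0.84 and 1.00, narrow beside the spread between experiments (SD of 0.65 in control and 0.52 in E47, n = 3). The log2 fold change was 0.98 (SE 0.09, 95% interval 0.75 to 1.20, limma adjusted p = 0.0264). The call rests on the experiment as a fixed block: the adjusted p was 0.804 without a block and 0.443 with a random block. The call was also lost without replicate 2 (0.147) and without replicate 3 (0.338). Over all probe sets, 107 higher and 15 lower calls fell to 34 and 0 without replicate 2 and to 4 and 0 without replicate 3. A call lost in these 2 settings is therefore not particular to Eomes.

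The brighter Eomes set, 1426001_at, read 6.21, 7.21 and 6.57 on the control arrays and 6.70, 7.69 and 7.39 on the E47 arrays. It was higher in E47 in each experiment by 0.49, 0.48 and 0.82. Its log2 fold change of 0.60 (SE 0.10, 95% interval 0.35 to 0.85) did not pass (limma adjusted p = 0.153). With the mean of both sets as the value of the gene and adjustment over 18193 genes, Eomes passed with a log2 fold change of 0.79 (limma adjusted p = 0.00820). With its brightest set alone it did not (0.0552).

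CD8 and NK cells also make Eomes, and their markers were read on the same arrays. The summed intensity of the 2 CD8 markers Cd8a and Cd8b1 was 178, 209 and 140 on the control arrays and 192, 327 and 189 on the E47 arrays, higher in E47 in each experiment and highest in experiment 2. Cd8b1 differed by 0.51 on the log2 scale (limma adjusted p = 0.365) and Cd8a by 0.24 (0.607). The 3 NK markers measured summed to 161, 464 and 124 in control and 169, 346 and 142 in E47, so experiment 2 was again the highest, while E47 was lower there. Of these NK markers Ncr1 and Klra8 were dimmer than the median probe set, and Klrd1 made up most of the sum. Their part in the Eomes result was not tested.

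Summed intensities of the Treg, macrophage and dendritic cell markers were lower on E47 arrays. The 6 Treg markers summed to intensities of 13452 to 14900 on control and 11514 to 13254 on E47 arrays. Tnfrsf18 was the brightest of them (control mean log2 level 12.72) and Foxp3 the dimmest (6.96), so Foxp3 added little to the sum. The log2 fold change was below 0 in 5 of the 6, -0.26 for Tnfrsf18 and -0.20 for Foxp3 among them, and 0.09 for Nrp1. The 5 macrophage and monocyte markers summed to 177 to 182 and 153 to 167, and the 5 dendritic cell markers to 160.6 to 195.4 and 151.7 to 160.5. These sums did not overlap between groups, though the dendritic ranges nearly touched. How often sums of other gene lists do so was not computed, and 6.65% of single probe sets lay lower without overlap. Of the markers, 4 of the 5 macrophage and 2 of the 5 dendritic ones, Itgam, Cd14 and Xcr1 among them, were dimmer than the median probe set. In these lists 0 markers passed in limma, with 2 at an unadjusted p under 0.05. Their part in the lower readings of the factors below was not tested. The 6 CD4 T cell markers summed to 14303 to 17112 and 14854 to 16416, overlapping.

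Tbx21, the other T-box factor, read 6.82, 6.46 and 6.53 on the control arrays and 6.22, 6.12 and 5.84 on the E47 arrays. All 3 E47 arrays lay below all 3 controls, with differences of -0.59, -0.35 and -0.70. The log2 fold change of -0.55 (SE 0.10, 95% interval -0.79 to -0.30) did not pass (limma adjusted p = 0.190), and over 12 other settings its adjusted p ran from 0.0723 to 0.805. A setting that averaged the probe sets of a gene and adjusted over genes gave 0.0504. Within each array, the Eomes level relative to Tbx21 was higher in E47, by 1.69, 1.18 and 1.70 on the log2 scale in experiments 1 to 3 with 1435172_at and by 1.09, 0.83 and 1.51 with 1426001_at. This ratio was chosen after the values were seen, and it shows an unequal change, not which of the genes changed.

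Gata3, read by 1448886_at, was 8.26, 8.42 and 8.13 on the control arrays and 7.68, 8.05 and 7.98 on the E47 arrays. The E47 arrays were all below the controls, by 0.57, 0.36 and 0.14 within experiments. Its log2 fold change was -0.36 (SE 0.11, 95% interval -0.63 to -0.09, limma adjusted p = 0.443), so it did not pass.

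For Maf the difference of experiment 2 from the others (-0.86 in its brightest set) exceeded the difference between groups. Neither the test over all 3 experiments nor that between groups passed. Its brightest set, 1456060_at, read 10.23, 9.61 and 10.004 on the control arrays and 10.12, 8.87 and 10.03 on the E47 arrays. The 2 lowest values were those of experiment 2, and the difference of -0.74 within that experiment set it apart from -0.11 and 0.03 in experiments 1 and 3. The log2 fold change was -0.28 (SE 0.16, 95% interval -0.67 to 0.12, limma adjusted p = 0.659). The other 5 Maf sets had log2 fold changes from -0.37 (1447849_s_at) to -0.13 (1437473_at), and 0 of the 6 passed, with 1 at an unadjusted p under 0.05 (1447849_s_at).

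The bright Rora sets all had log2 fold changes below 0. Of its 9 sets, 5 had a mean level above 6, and their log2 fold changes lay between -0.66 and -0.51. In experiment 1 these 5 sets differed by -0.95 to -0.60 and in experiment 2 by -0.90 to -0.51. In experiment 3 they differed by -0.25 to 0.11, so the size of the difference there was smaller in each of them, a contrast between experiments that was not tested. The brightest set, 1424034_at, read 8.17, 8.04 and 8.51 on the control arrays and 7.38, 7.53 and 8.28 on the E47 arrays, and the E47 array of experiment 3 lay within the control range. None of the 5 passed (limma adjusted p from 0.280 to 0.547). The 4 sets with a mean level below 6 had log2 fold changes between -0.16 and -0.03, and their adjusted p was 0.723 to 0.955. Of these 4, 1458129_at (-0.09) and 1441085_at (-0.03) still lay above the median of all probe sets, as did 7 of the 9 Rora sets in all. Sets 1424034_at and 1424035_at came from the same source sequence and still read -0.51 and -0.16, at control means of 8.24 and 4.79.

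Ahr, read by its brighter set 1422631_at, stood at 9.15, 8.97 and 9.45 on the control arrays and 8.64, 8.46 and 9.24 on the E47 arrays. The differences were -0.51, -0.51 and -0.21, smallest in experiment 3 as in the bright Rora sets. The log2 fold change was -0.41 (SE 0.10, 95% interval -0.66 to -0.17, limma adjusted p = 0.326). The dimmer set 1450695_at gave -0.27 (adjusted p = 0.508), with its smallest difference in experiment 1 (-0.11), at a control mean of 4.67, below the median of all probe sets.

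**Figure D2:**
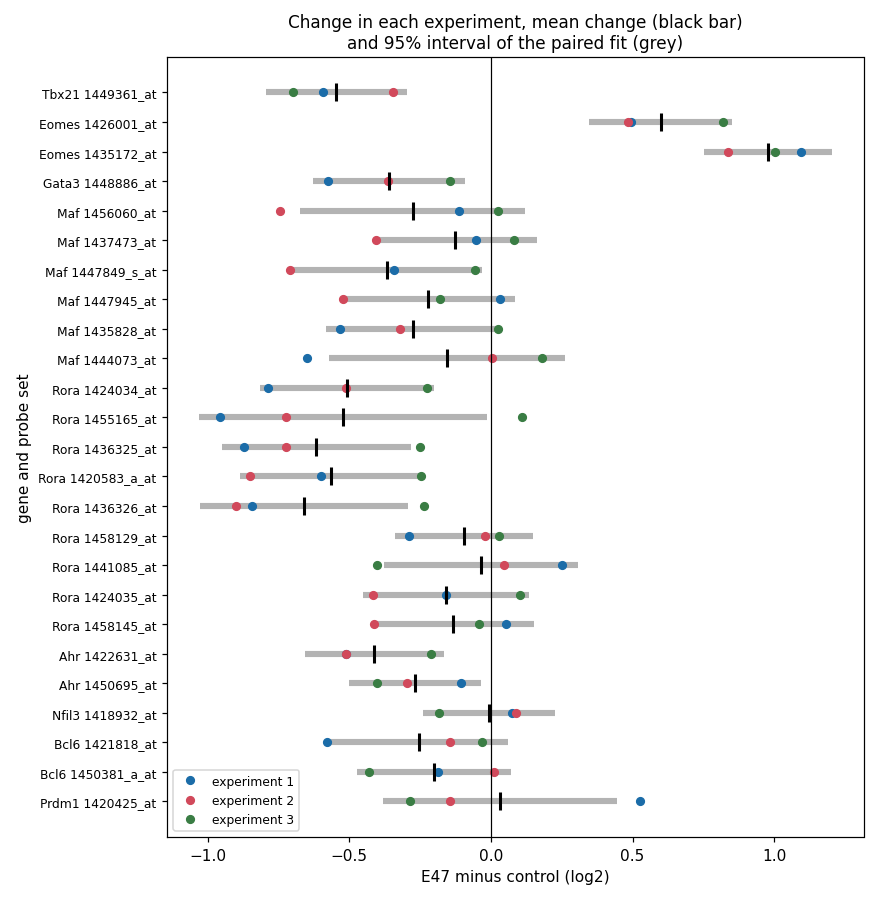
E47 minus control on the log2 scale (horizontal axis) for all 25 probe sets; coloured points are the 3 experiments, the black bar is their mean and the grey band its 95% interval in the paired fit, which rests on the spread of 3 differences moderated over all probe sets. The 2 Eomes sets lie right of 0 in all experiments, and the 5 bright Rora sets lie left of 0 in experiments 1 and 2 and nearer 0 in experiment 3.

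Bcl6 and Prdm1, the opposed repressors of the follicular helper fate, showed no called difference. Bcl6 set 1421818_at read 5.91, 6.65 and 5.78 on the control arrays and 5.33, 6.50 and 5.75 on the E47 arrays, with experiment 2 highest in either group. It was lower in E47 in each experiment, by 0.58, 0.15 and 0.03, and its log2 fold change was -0.25 (95% interval -0.56 to 0.06, limma adjusted p = 0.618). The other Bcl6 set, 1450381_a_at, had -0.20 (adjusted p = 0.644) at a dim control mean of 4.57. Prdm1, read by 1420425_at, was 3.46, 4.18 and 4.16 on the control arrays and 3.98, 4.04 and 3.87 on the E47 arrays, below the median of all probe sets on every array. Its differences of 0.53, -0.14 and -0.29 had no common direction, and its log2 fold change was 0.03 (95% interval -0.38 to 0.44, limma adjusted p = 0.966).

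Nfil3 had the smallest difference of the 9 factors. Set 1418932_at read 6.59, 7.05 and 6.78 on the control arrays and 6.67, 7.14 and 6.60 on the E47 arrays. The groups overlapped, with the E47 array of experiment 2 the highest, and the log2 fold change was -0.01 (SE 0.09, 95% interval -0.24 to 0.23, limma adjusted p = 0.988).

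The 3 experiments were also compared with each other, taking both arrays of each. Age, the number of pooled mice and the experiment cannot be told apart in this comparison. Eomes set 1435172_at differed between experiments (F test in limma, adjusted p = 0.0396), which 0.604% of all probe sets did, and no other member did at this threshold. It was higher in experiment 2 than in the mean of experiments 1 and 3 by 0.94, and its other set by 0.73 (adjusted p = 0.0750). Each adjusted p here is from the F test over all 3 experiments and does not test the difference of experiment 2 beside it. Bcl6 set 1421818_at was higher in experiment 2 by 0.88 (adjusted p = 0.110) and Nfil3 by 0.44 (0.253). The 3 Maf sets with a mean level above 6 were lower in experiment 2 by between 0.42 and 1.00 (adjusted p from 0.0954 to 0.366). The 5 such Rora sets were below the mean of experiments 1 and 3 by between 0.30 and 0.42 (0.160 to 0.342). Experiment 3 was the highest in each of these Rora sets, with experiment means of 7.77, 7.79 and 8.40 in the brightest. Tbx21 differed by -0.06 (adjusted p = 0.463), with means of 6.52, 6.29 and 6.18 in experiments 1, 2 and 3.

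**Figure D3:**
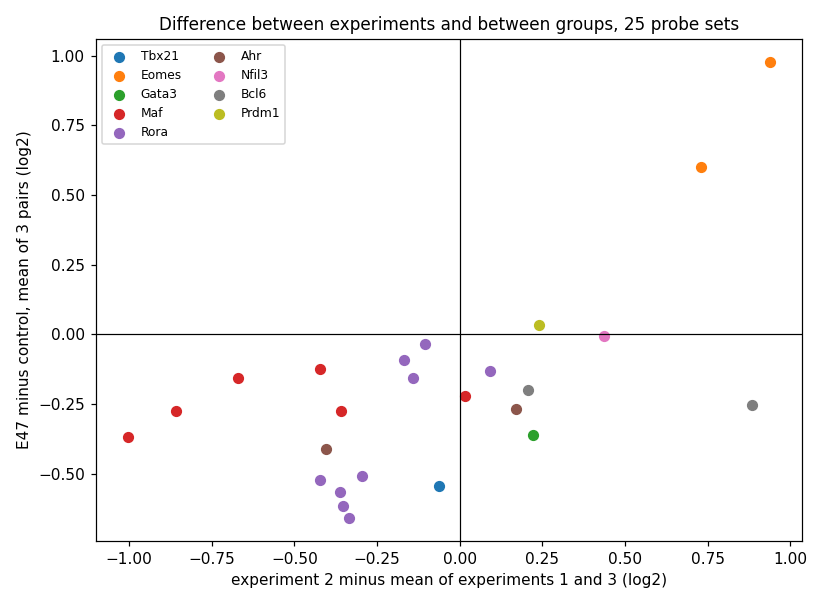
Each point is 1 of the 25 probe sets, with the level in experiment 2 minus the mean of experiments 1 and 3 on the horizontal axis and E47 minus control on the vertical axis (both log2). The 2 Eomes sets sit at the upper right, high on both, whereas the Maf sets have differences between groups of -0.37 to -0.13 and all but 1447945_at (0.02) lie left of 0.

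The genes closest in pattern to Eomes set 1435172_at were sought among 34943 probe sets of other genes. The measure was the root mean square difference of log2 levels over the 6 arrays, each set centred on its own mean. The nearest were Pgpep1l (0.16), Adgrg1 (0.18), which encodes an adhesion G protein-coupled receptor, and Rasa3 (0.20), a Ras GTPase-activating protein. Adgrg1 was dim, with means of 3.92 in control and 4.78 in E47, below the median of all probe sets. Their log2 fold changes were 1.08 (limma adjusted p = 0.0161), 0.86 (0.162) and 1.14 (0.0282). Neither call held without the block (0.792 for Pgpep1l and 0.804 for Rasa3), without replicate 2 (0.158 and 0.129) or without replicate 3 (0.258 for both). This nearness is a description over 6 arrays. Because the 6 arrays also served to choose these genes, a rise like that of Eomes was largely fixed by the choice. Their p-values are therefore not further evidence.

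Genes around the factors were taken from lists, each gene by its brightest probe set, with the p adjusted over all probe sets. Among genes so represented, 0.368% were called higher and 0.0715% lower, and their median log2 fold change was -0.02 (18193 genes). At an unadjusted p under 0.05, 4.39% of these genes were higher and 5.67% lower. With the p adjusted over these genes in place of all probe sets, 0.781% were called higher and 0.363% lower, and that count is given for each list as well. Of 34 other helper T cell regulators 4 rose and 0 fell in limma (8 and 8 at an unadjusted p under 0.05), with a list median of -0.03. These were Id2 (log2 fold change 2.64, limma adjusted p = 0.00673) and Id3 (1.63, 0.0161), inhibitors of E proteins, Ikzf3, which encodes the zinc finger factor Aiolos (1.09, 0.0227), and the repressor gene Gfi1 (1.47, 0.0234). Without the block Ikzf3 (adjusted p = 0.804) and Gfi1 (0.822) did not pass. All 4 calls were lost without replicate 2 (adjusted p from 0.05003 for Id2 to 0.188 for Gfi1) and without replicate 3 (0.0844 for Id3 to 0.246 for Ikzf3). Pou2af1, a coactivator that had the lowest p of those that missed, had -0.64 (adjusted p = 0.101). Adjusted over genes, the same 4 rose. By this adjustment the rises held without replicate 2 (limma adjusted p from 0.00694 for Id2 to 0.0383 for Gfi1). Without replicate 3 they held for Id3 (0.0113), Id2 (0.0367) and Gfi1 (0.0480) but not Ikzf3 (0.0537). Ikzf3 (0.685) and Gfi1 (0.716) again missed without the block. Pou2af1 fell by this adjustment (0.0323), a call lost when any 1 experiment was left out (0.0505 to 0.223) and without the block (0.502). Of 21 family relatives of the 9 factors 0 passed in either direction in limma, over probe sets or over genes (3 at an unadjusted p under 0.05). Among them Zfpm1, which encodes FOG-1, a partner that represses GATA factors, came closest (0.59, adjusted p = 0.224).

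In the list of genes tied to T-bet and Eomes 0 of 19 passed over all probe sets in limma, 9 were lower and 0 higher at an unadjusted p under 0.05, and the median was -0.20. The chemokine gene Ccl3 had the lowest p (log2 fold change -0.77, limma adjusted p = 0.0563). Adjusted over genes, 6 of the 19 fell and 0 rose. These 6 were Ccl3, Ccl4, Nkg7, Il18rap, Cxcr6 and Il18r1, which encode chemokines, a granule protein, IL-18 receptor chains and a chemokine receptor. All 6 calls were lost without replicate 2 (adjusted p from 0.0740 to 0.172), without replicate 3 (0.126 to 0.220) and without the block (0.0579 to 0.861). That of Il18r1 was also lost without replicate 1 (0.0604). Adjusted over all probe sets, a stricter adjustment by which none of these 6 was called, 0 of all sets were called lower without replicate 2, without replicate 3 or without the block. Lower calls adjusted over genes were not counted in those settings. Whether the losses are particular to these genes was therefore not tested.

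In the list of genes tied to GATA3 and c-Maf 3 of 14 rose and 0 fell in limma (4 and 3 at an unadjusted p under 0.05). Il10 read 6.24, 5.27 and 6.18 on the control arrays and 8.51, 7.56 and 8.75 on the E47 arrays, with no overlap, and rose by 2.38 (limma adjusted p = 0.00249). Il4, the Th2 cytokine, rose by 1.46 (0.0150), and Gfi1 is counted here again. The Il10 call was lost without the block (0.108) and without replicate 3 (0.0606), and that of Il4 without replicate 2 (0.131) and without replicate 3 (0.234). Adjusted over genes, Il10 held without replicate 2 (limma adjusted p = 0.00217) and without replicate 3 (0.00542) but not without the block (0.0757). By the same adjustment Il4 held without replicate 2 (0.0243) and missed without replicate 3 (0.05001). Il24 had -0.69 (0.0869). Adjusted over genes, 3 rose and 2 fell, the cytokine genes Il24 (limma adjusted p = 0.0267) and Il9 (log2 fold change -0.74, 0.0273). Neither fall held without replicate 2 (0.183 and 0.0646), without replicate 3 (0.183 and 0.190) or without the block (0.272 and 0.938). The median of this list was -0.07. Beside these cytokine genes, all 7 sets of Gata3 and Maf had log2 fold changes below 0 and none passed. In the list of genes tied to RORα and the aryl hydrocarbon receptor 0 of 9 passed in limma, over probe sets or over genes (3 at an unadjusted p under 0.05), with Il17a, the Th17 cytokine, at -0.47 (limma adjusted p = 0.153) and a median of -0.06.

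In the list of genes tied to Bcl6 and Blimp-1 1 of 19 rose and 0 fell in limma (6 and 4 at an unadjusted p under 0.05), and the median was 0.06. This list mixes genes of the Bcl6 programme with genes of its opposition by Blimp-1, so its median and counts have no single direction. Cxcr5, the chemokine receptor that guides follicular helper cells, read 4.59, 4.52 and 4.59 on the control arrays and 8.61, 8.76 and 8.69 on the E47 arrays (log2 fold change 4.11, limma adjusted p = 5.02e-04), beside a Bcl6 log2 fold change of -0.25. Cd200, another gene of that list, had -0.66 (adjusted p = 0.0663). Adjusted over genes, Selplg, which encodes the selectin ligand PSGL-1, rose as well (log2 fold change 0.56, limma adjusted p = 0.0389). By that adjustment 4 fell, Cd200 (0.0187), Pou2af1 (0.0323), the costimulator gene Icos (-0.51, 0.0418) and the inhibitory receptor gene Btla (-0.50, 0.0474). These 5 calls were lost without replicate 2 (0.140 to 0.332), without replicate 3 (0.1235 to 0.235) and without the block (0.502 to 0.735), and those of Pou2af1, Icos and Btla also without replicate 1 (0.0505 to 0.0776). Leaving out any 1 experiment kept the Cxcr5 call, with 0.0438 the highest adjusted p (without replicate 3). Of 13 clock genes tied to Nfil3 and RORα 0 passed in limma, over probe sets or over genes, and 1 had an unadjusted p under 0.05, the clock repressor gene Cry1 (log2 fold change 0.22, limma adjusted p = 0.542). Their median was 6e-04.

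**Figure D4:**
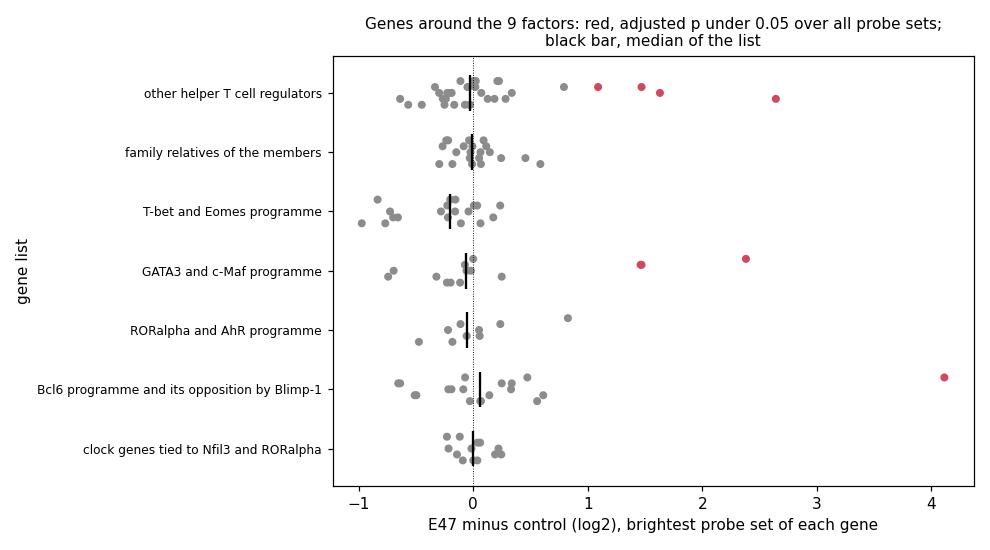
E47 minus control on the log2 scale (horizontal axis) for each measured gene of 7 lists, by its brightest probe set; red points passed at an adjusted p under 0.05 over all probe sets and black bars are list medians. Red points are the 4 regulators Id2, Id3, Ikzf3 and Gfi1, the 3 genes Il10, Il4 and Gfi1, and Cxcr5, while the T-bet and Eomes list lies mostly left of 0 with a median of -0.20.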

How the data were processed

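The 6 samples were hybridised to Affymetrix mouse arrays, 1 array each. The authors deposited 1 linear intensity per probe set and array, made with RMA (no version), per the submitters' processing notes; the lowest value was 4.26 and array medians lay between 34.3 and 35.3. Log2 was taken, 64 Affymetrix control sets were left out, and the remaining 45037 probe sets were kept without a filter. Symbols came from the platform annotation (34945 sets with 1 symbol). Groups and replicate numbers came from the titles. The main fit was limma 3.58.1 in R 4.3.3 (lmFit, eBayes, two-sided) with the group and the experiment as a block, Benjamini-Hochberg adjustment over all probe sets and a threshold of 0.05. The block follows the design text, which gives 1 control and 1 E47 sample per experiment. Deviations from the group means correlated at 0.09, 0.52 and 0.31 for same-numbered arrays across all probe sets, the first of them under 0.1. The control array of experiment 3 and the E47 array of experiment 1, which are not a pair, correlated at 0.22. In this fit the p-values of E47 against control rest on the spread of the 3 differences within experiments, moderated over all probe sets. Arrays carry no read depth, so their number limits the precision. Detection above background was not tested.

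The 9 genes, the gene lists and the tests were chosen with earlier results of these data known. Named genes were all probe sets of the 9 factors, and from each list the members of lowest p, up to 4 past the threshold and 1 short of it. Genes named from the adjustment over genes, and the ratio of Eomes to Tbx21, were chosen after their values were seen. Cell type markers covered CD4 and CD8 T, Treg, B and plasma, NK, macrophage, dendritic, erythroid and mast cells. None of the measured markers of these lists passed in limma (0 of 36, with 5 at an unadjusted p under 0.05). Alternatives changed the block, the scaling, a filter on dim sets, an offset, the unit of the test, the eBayes prior and the replicates.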

Additional observations from a re-analysis of the deposited data

How the results depend on the processing

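Of the 25 probe sets, 18 kept their direction in every alternative run, both Eomes sets, Tbx21, Gata3 and the 5 bright Rora sets among them. The rise of Eomes set 1435172_at passed in 7 of its 11 alternatives, with adjusted p from 0.00427 to 0.804 and log2 fold changes from 0.81 to 1.05. With no replicate block, 0 of the 25 were higher, 52 probe sets in all were higher and 0 lower. With a random replicate block 0 of the 25 were higher, 89 probe sets in all were higher and 6 lower. With 1 brightest probe set per gene 0 members were higher, and with an intensity trend 2 were, the second being 1426001_at of Eomes (adjusted p = 0.0428). No alternative called a member lower. Without replicate 1, 1 member and 486 probe sets in all were higher, and 65 in all were lower. These 3 counts were 0, 34 and 0 without replicate 2, and 0, 4 and 0 without replicate 3. Calls lower in all numbered 41 above the median level, 25 with log2(value + 16), 66 with the brightest set per gene, 67 with the mean of sets and 196 with the trend, which called 362 higher. Differences between experiments were called in 609 sets above the median, 582 genes by the brightest set and 604 by the mean, with 2 members in the first and second. Fewer features entered the tests above the median level, with the brightest set and with the mean of sets. The other settings kept all probe sets. The cause of these moves was not tested. The direction turned for Nfil3 with median centring (0.0096) and for Rora 1441085_at with cyclic loess (0.0092). It also turned with 1 replicate left out, where the log2 fold change ran from -0.2277 to 0.0146 in Maf 1437473_at, -0.3225 to 0.0919 in Maf 1444073_at, -0.1552 to 0.0032 in Rora 1458129_at, -0.1774 to 0.1490 in Rora 1441085_at, -0.2267 to 0.0061 in Rora 1458145_at, -0.0539 to 0.0806 in Nfil3 1418932_at and -0.2157 to 0.1904 in Prdm1 1420425_at. Arrays number 3 per group, which limits the precision.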
